A study of Musa acuminata AAA Group with 4 samples.

Results

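The genes described here are the heat shock proteins and chaperones of banana, 38 genes of the 31873 seen in any library. They were the genes of either of the authors' filtered tables, which list low nitrogen (low N) over normal nitrogen in leaf or in root, whose best protein match was described as a heat shock protein, heat stress transcription factor, DnaJ protein, chaperone or BAG family protein. Of these, 28 stood in the leaf table and 12 in that of root, and 2 stood in both. Because those tables had been filtered on the low N change in these same libraries, the sizes of that change are a description of the genes and not evidence that chaperones respond to nitrogen. The nearest members to the limit of 1 on the log2 scale were, in the authors' deposited table for leaf, a chloroplast small heat shock protein gene (Ma10_g16680) at -1.01 and, in that for root, a dnaJ 20 gene (Ma03_g17570) at -1.10. Just outside, by the ratio of FPKM computed here, were a heat stress transcription factor C-2b gene (Ma10_g27770) at -0.99 in leaf and a dnaJ 8 gene (Ma01_g00790) at -0.87 in root. Larger ratios in genes with few fragments were also absent from those tables, such as 2.83 for a dnaJ C14-like gene (Ma01_g17650) in leaf and -2.55 for a 16.9 kDa small heat shock protein gene (Ma09_g00490) in root.

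Cavendish banana plants (Musa acuminata, AAA Group) were grown in sand at 28 to 35 °C for 60 days. They received either Hoagland's complete nutrient solution (the control, marked normal N in the plots) or a solution low in nitrogen, whose nitrogen content the labels do not give. RNA of the aboveground part, labelled as leaf but described in the series' design text as leaf and pseudostem, and RNA of root were each sequenced as 1 library per nutrient solution. The labels do not say how many plants went into a library or at what hour and temperature they were sampled, and with 1 library per group no difference below has a replicate check or a p-value.

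Heat shock proteins bind other proteins that are unfolded or newly made and keep them from clumping. Small heat shock proteins hold unfolding clients without ATP, the ATP-driven HSP70 and HSP90 machines refold them, and DnaJ (HSP40) proteins, BAG proteins and other partners steer HSP70. Their genes are switched on by heat stress transcription factors, of which class A members activate and many class B members repress, in the plants in which they have been studied.

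The 4 libraries held 4144048 to 4408992 expected fragments (the authors' estimated counts per gene). Green-tissue markers were 31 photosystem, antenna and RuBisCO small-chain genes of the filtered tables. They summed to 54865 FPKM in control leaf, 22488 in low-N leaf, and 309 and 171 in the root libraries. A single RuBisCO small-chain gene (Ma02_g24600) made up most of the leaf sums, at 47042 and 19671 FPKM. Another (Ma07_g15870) was higher in root, at 224 and 81.6 FPKM against 1.89 and 0.95 in leaf. By size, 30 of the 31 were higher in leaf than root and 1 lower in control plants. Under low N, 29 were higher and 2 lower. FPKM counts fragments per kilobase of a gene relative to the size of its library. The 5 root markers were mixed, summing to 76.7 FPKM in control leaf, 405 in low-N leaf, 839 in control root and 113 in low-N root. Of these, 4 are genes of high-affinity nitrate uptake, and 1 of the 5 was higher in leaf than root by size in control plants and 2 under low N. The other, a Casparian strip membrane protein gene of the root endodermis (Ma08_g07640), was at 0 in both leaf libraries and at 3.75 and 16.9 FPKM in control and low-N root. The part of root marker levels in the results was not tested. Secondary wall markers (18 genes), which could tell of pseudostem, summed to 36.8 and 18.6 FPKM in leaf and to 1141 and 1149 FPKM in root. The near-equal root sums hide changes in both directions, as 8 of the 18 were higher by size in low-N root and 10 lower. The green-tissue sum was lower in low-N leaf, as were many of the chaperone genes, and its part in their levels was not tested. Like the chaperones, all the markers came from tables filtered on the low-N change in these same libraries. A green-tissue gene unchanged in both tissues could not be listed. That 30 of the 31 green-tissue genes were lower by size in low-N leaf is therefore only a description. In bulk tissue, fewer cells of a type and less RNA per cell cannot be told apart.

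A gene is called higher or lower by size here when log2 of (FPKM + 1) differed by at least 1 between libraries and 2 FPKM or more were reached in either. That scale understates the difference of weak genes. In leaf, 12 of the 38 genes were higher by size under low N and 16 lower, with 37 at the filter. Over all genes at the filter, 11.7% were higher and 6.70% lower, but among genes the authors had filtered, 53.0% were higher and 26.1% lower. The median log2 change was -0.96 over the chaperone genes, 0.12 over all genes and 1.04 over the filtered tables. After median-ratio scaling the leaf medians were -1.17 over the chaperone genes and -0.09 over all genes. In root, 4 were higher and 11 lower, against 4.67% higher and 6.90% lower over all genes and 15.9% and 26.4% over the filtered tables. The root median was -0.57 over the chaperone genes, -0.01 over all genes and -0.13 over the filtered tables. Being listed used these contrasts, so nothing is read from the shares.

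The change in the other tissue is also only a description. The 2 genes of both tables were filtered on both tissues, and absence from a table reflects that tissue's change too. Of the 26 genes listed for leaf alone, 0 were higher and 3 lower by size in root, with a median root change of -0.23. Of the 10 listed for root alone, 2 were higher and 0 lower in leaf, with a median leaf change of 0.05. The 2 listed in both (Ma01_g14490 and Ma10_g14770) were lower by size in both tissues. With these 2 counted in each, the 28 genes of the leaf table had 0 higher and 5 lower in root, where all genes of that table gave 3.96% higher and 7.97% lower. The 12 of the root table had 2 higher and 2 lower in leaf, where all genes of that table gave 18.9% and 16.2%. Nothing is read from these shares.

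**Figure D1:**
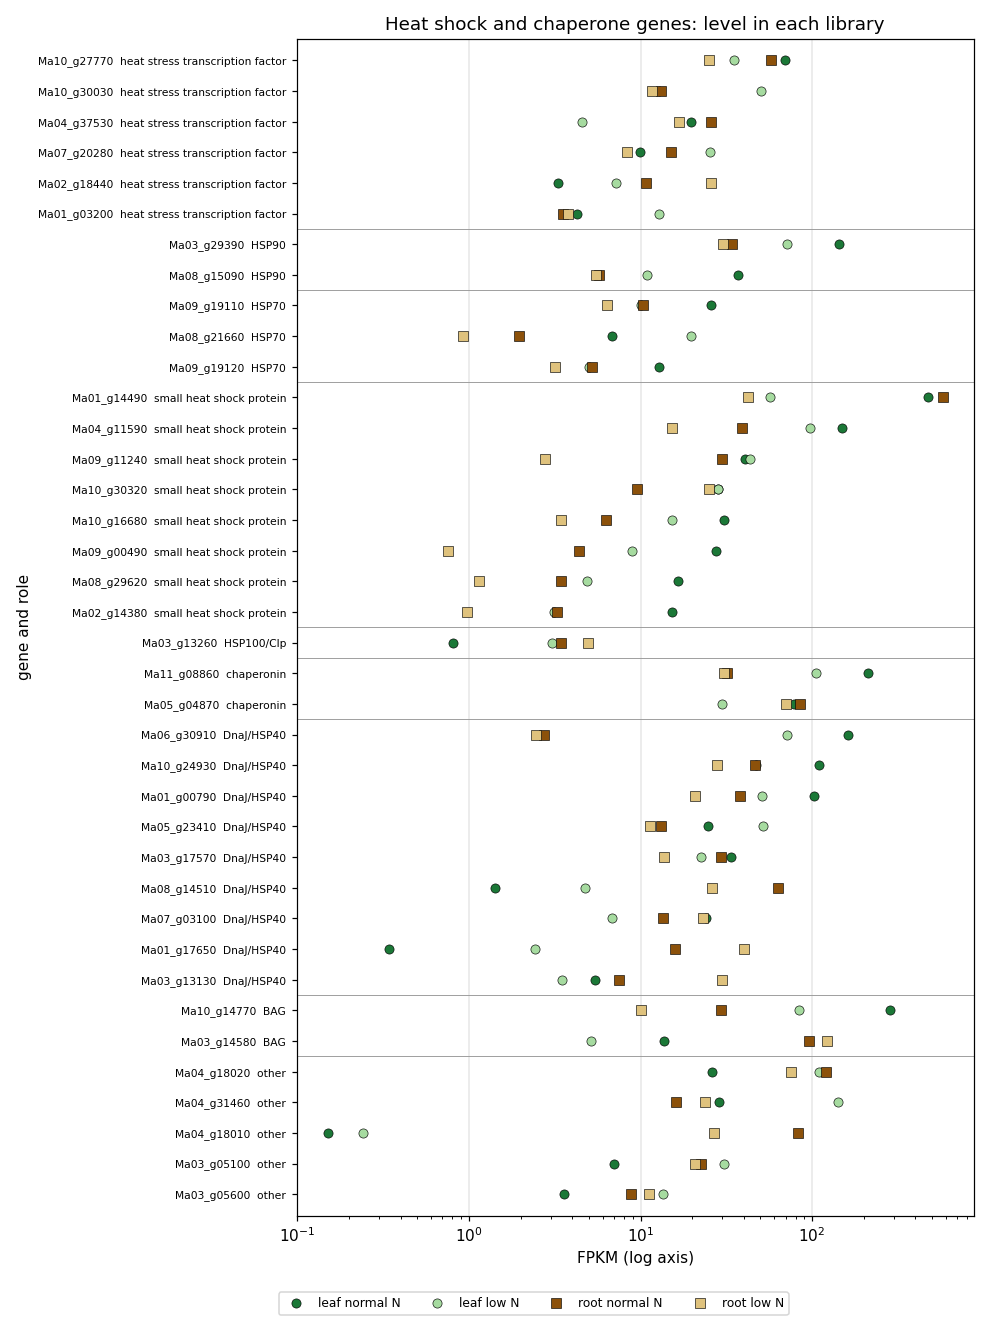
Level of each of the 38 genes in the 4 libraries, as FPKM on a log axis, grouped by role and ordered by mean level within a role; each point is 1 library. Low-N root is the lowest library for 22 of the genes and control leaf the highest for 17.

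Of the 8 small heat shock protein genes listed, 4 were lower by size under low N in both tissues. The share of all genes lower in both was not computed, so that count is only a description. In all, 0 were higher and 4 lower in leaf, and 1 was higher and 6 lower in root. Low-N root was the lowest of the 4 libraries for 7 of the 8. Summed over the class, the level was 778 FPKM in control leaf, 258 in low-N leaf, 673 in control root and 91.8 in low-N root. A single gene made up much of that. Without it, the sums were 307, 201, 95.7 and 49.5 FPKM. By ratios of summed expected counts scaled to library totals, which weight long genes more than FPKM does, the low-N difference shrank from 2.95-fold (95% counting interval 2.67 to 3.26) to 1.57-fold (1.39 to 1.78) lower in leaf and from 6.50-fold (5.62 to 7.56) to 1.66-fold (1.32 to 2.09) lower in root.

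That gene encodes an 18.1 kDa class I protein (Ma01_g14490), of the cytosolic class that answers heat most strongly in many plants. It was at 471 FPKM in control leaf, 57.1 in low-N leaf, 577 in control root and 42.3 in low-N root. Both control libraries stood far above both low-N libraries, and the tissues were close to each other under each solution. The fold, a ratio of expected counts scaled to library totals with an exact 95% interval that covers counting error only, was 8.27 lower in leaf (6.75 to 10.2) and 13.7 lower in root (10.9 to 17.3). It had the most negative change of all 38 genes in each tissue. Measured as distance between log2 (FPKM + 1) values over the 4 libraries, the nearest genes were a 20 kDa chaperonin (Ma05_g04870) at 3.94, a dnaJ B5-like gene (Ma10_g24930) at 4.22 and the other 20 kDa chaperonin (Ma11_g08860) at 4.40. None of these was called by size in root, where the 18.1 kDa gene had its largest difference.

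A second 18.1 kDa class I gene (Ma04_g11590) differed in both level and pattern. It was at 149 FPKM in control leaf, 97.2 in low-N leaf, 38.9 in control root and 15.3 in low-N root. Leaf was above root under each solution, and the low-N fold was 1.53 lower in leaf (1.26 to 1.86) and 2.54 lower in root (1.65 to 4.02). The 16.9 kDa class I gene (Ma09_g00490) was at 27.3, 8.89, 4.39 and 0.75 FPKM in the same order. It was 3.04-fold lower in low-N leaf (1.73 to 5.61), whereas its root values rest on 9 fragments and 2 after rounding and their interval, 0.93 to 43.0-fold lower, holds 1.

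Among the organelle small heat shock proteins, control leaf was the highest library and low-N root the lowest for each gene but the mitochondrial one. The chloroplast genes Ma02_g14380 and Ma10_g16680 were at 15.2 and 30.8 FPKM in control leaf, and at 3.14 and 15.3 FPKM in low-N leaf. The former was 4.86-fold lower in low-N leaf (2.34 to 11.3) and the latter 2.01-fold lower (1.40 to 2.93), just under the size limit on the log2 scale. In root they were at 3.27 and 6.25 FPKM in control plants and 0.98 and 3.44 FPKM under low N, with intervals that held 1. The 22.0 kDa class IV gene (Ma08_g29620), annotated to the endoplasmic reticulum in the authors' deposited table, was at 16.6, 4.88, 3.43 and 1.14 FPKM and 3.40-fold lower in low-N leaf (1.75 to 7.11). Its root interval held 1 as well. The mitochondrial 22 kDa gene (Ma10_g30320) was level in leaf, at 28.1 and 28.3 FPKM, and was at 9.55 FPKM in control root and 25.1 in low-N root, 2.62-fold higher (1.66 to 4.25). It was the only small heat shock protein gene among the 8 that was higher by size in either tissue.

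The 15.4 kDa class V gene (Ma09_g11240) was lower in low-N root alone. It stood at 40.5 and 43.2 FPKM in leaf, at 29.9 in control root and at 2.77 in low-N root, 10.8-fold lower (4.37 to 34.7). The leaf fold of 1.06 (0.75 to 1.5) held 1, and 3 of the 4 libraries were close in level.

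**Figure D2:**
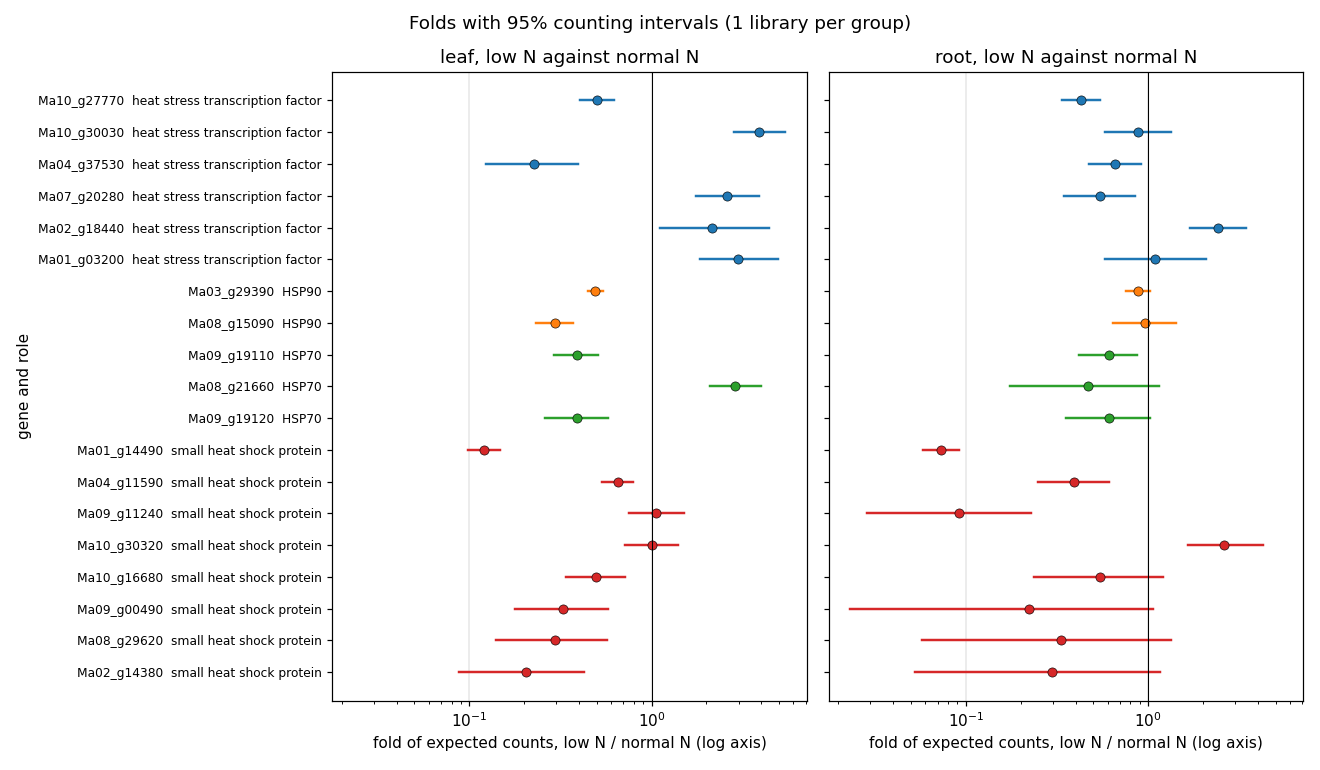
Fold of expected counts, low N over normal N, for the heat stress transcription factors, HSP90, HSP70 and small heat shock proteins, in leaf and in root on shared log axes; lines are exact 95% intervals of counting error with 1 library per group. In leaf, the intervals of the class B factors, of HSF30-like (Ma02_g18440) and of the cognate HSP70 gene (Ma08_g21660) lie above 1. The 18.1 kDa gene Ma01_g14490 lies farthest below 1 in both tissues.

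Of the 6 heat stress transcription factors, 3 were higher and 1 lower by size in leaf, and 1 was higher and 1 lower in root. The 3 that were higher in leaf were the class B genes. A B-1 gene (Ma10_g30030) was at 12.9 FPKM in control leaf, 50.4 in low-N leaf, 13.2 in control root and 11.7 in low-N root, so that low-N leaf stood alone. Its leaf fold was 3.88 higher (2.82 to 5.42). The other B-1 gene (Ma07_g20280) was at 9.97, 25.5, 15.1 and 8.29 FPKM, 2.58-fold higher in low-N leaf (1.75 to 3.88) and 1.82-fold lower in low-N root (1.17 to 2.88). The B-2b gene (Ma01_g03200) was at 4.25, 12.7, 3.51 and 3.78 FPKM and 2.97-fold higher in low-N leaf (1.85 to 4.94).

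Both class C genes were lower under low N. The C-2a gene (Ma04_g37530) was at 19.8 FPKM in control leaf and 4.53 in low-N leaf, 4.42-fold lower (2.54 to 8.14), and at 25.6 and 16.7 FPKM in root, 1.52-fold lower (1.10 to 2.12). The C-2b gene (Ma10_g27770), the most abundant factor of the 6 by mean level, was at 69.7 and 35.2 FPKM in leaf, 1.98-fold lower (1.61 to 2.46). In root it was at 57.7 and 25.0 FPKM, 2.32-fold lower (1.83 to 2.96). The class A type gene HSF30-like (Ma02_g18440), whose tomato namesake is the activator HsfA2, went the other way. It was at 3.30 and 7.15 FPKM in leaf, 2.15-fold higher (1.11 to 4.40), and at 10.7 and 25.8 FPKM in root, 2.41-fold higher (1.71 to 3.45), a gene of the root table. Summed over the 6, the level was 120 and 135 FPKM in leaf and 126 and 91.3 FPKM in root. By summed expected counts that was 1.16-fold higher in low-N leaf (1.03 to 1.32) and 1.34-fold lower in low-N root (1.17 to 1.54).

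HSP90 was lower in low-N leaf and differed little in root. The more abundant gene, heat shock protein 83-like (Ma03_g29390), was at 144 FPKM in control leaf, 71.2 in low-N leaf, 34.1 in control root and 30.2 in low-N root. Both leaf libraries were above both root libraries, with a leaf fold of 2.03 lower (1.85 to 2.22) and a root fold of 1.13 lower (0.97 to 1.32). The other HSP90 gene (Ma08_g15090) was at 36.8, 10.8, 5.72 and 5.50 FPKM, 3.40-fold lower in low-N leaf (2.70 to 4.31) and 1.04-fold lower in root (0.70 to 1.56).

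The HSP70 genes split. Those of heat shock 70 kDa protein 8 (Ma09_g19110 and Ma09_g19120) had the same best match, the same length and counts in a ratio of 2.00 in every library. Fragments may therefore have been divided between them, and their levels are given here only as a sum. Both are still plotted singly and counted as separate genes in the calls. With 1 of them left out, 15 genes in place of 16 were lower by size in low-N leaf. In control plants, 15 in place of 16 were then higher in leaf than root. The pair summed to 38.4 FPKM in control leaf, 15.0 in low-N leaf, 15.6 in control root and 9.50 in low-N root. That was 2.56-fold lower in leaf (2.05 to 3.22) and 1.65-fold lower in root (1.23 to 2.22). Heat shock cognate 70 kDa protein 2-like (Ma08_g21660), of a family whose cognate members serve in unstressed cells, was at 6.85, 19.6, 1.95 and 0.92 FPKM. It was 2.87-fold higher in low-N leaf (2.11 to 3.97), opposite in direction to the pair.

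Among the 9 DnaJ genes, whose proteins bring clients to HSP70 and start its ATP cycle, 3 were higher and 3 lower by size in leaf, and 2 were higher and 2 lower in root. The most abundant by mean level, dnaJ B14 (Ma06_g30910), was at 162 FPKM in control leaf, 71.0 in low-N leaf, 2.74 in control root and 2.46 in low-N root. It was 2.29-fold lower in low-N leaf (1.97 to 2.67) and was far above root in both leaf libraries. The B1-like gene (Ma07_g03100) was at 24.0 and 6.86 FPKM in leaf, 3.50-fold lower (2.26 to 5.59), and at 13.6 and 23.1 FPKM in root, 1.70-fold higher (1.21 to 2.40). A dnaJ B5-like gene (Ma10_g24930) was 2.33-fold lower in low-N leaf (1.76 to 3.11). The other B5 gene (Ma05_g23410) was at 24.8 and 51.8 FPKM in leaf, 2.09-fold higher (1.41 to 3.14), a call that fell under the size limit with median-ratio or upper-quartile scaling.

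Chloroplast J proteins differed from each other. The dnaJ 8 gene Ma01_g00790 was at 103 and 51.0 FPKM in leaf and 38.1 and 20.8 FPKM in root. It was 2.02-fold lower under low N in leaf (1.57 to 2.62) and 1.84-fold lower in root (1.24 to 2.76), under the size limit in both. The other dnaJ 8 gene (Ma03_g13130) was at 5.43 and 3.48 FPKM in leaf, an interval that held 1, and at 7.46 and 29.8 FPKM in root, 3.99-fold higher (2.28 to 7.39). That was the most positive root change of the 38 genes. The dnaJ 20 gene (Ma03_g17570) was at 33.7 and 22.5 FPKM in leaf and 29.5 and 13.8 FPKM in root, 2.15-fold lower in root (1.43 to 3.28). Under both other scalings it fell under the size limit in root, as did the class IV small heat shock protein gene Ma08_g29620.

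The remaining J genes were mostly root genes. The dnaJ 11 gene (Ma08_g14510) was at 1.41 and 4.73 FPKM in leaf and 63.4 and 26.1 FPKM in root, 2.43-fold lower in root (1.78 to 3.35), while its leaf values rest on 3 and 10 fragments. DnaJ C14-like (Ma01_g17650) was at 0.34 and 2.42 FPKM in leaf, from 1 and 7 fragments, and at 15.9 and 40.1 FPKM in root. It was 2.52-fold higher in low-N root (1.80 to 3.59).

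**Figure D3:**
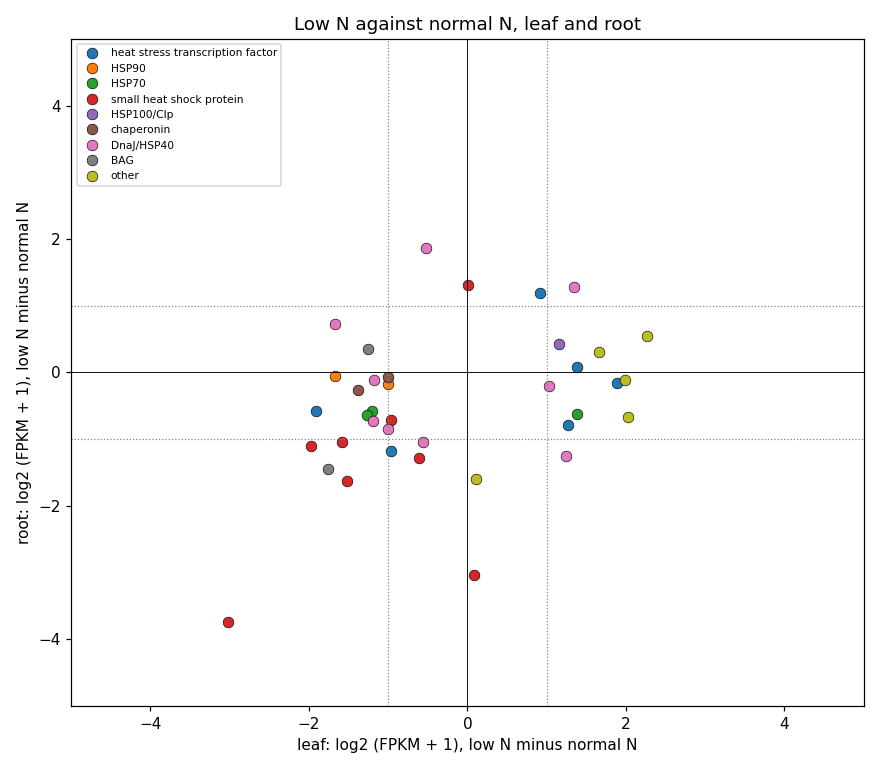
Low N minus normal N on the log2 (FPKM + 1) scale in leaf (x axis) and root (y axis) for the 38 genes, coloured by role, 1 point per gene; dotted lines mark the size limit of 1 in either direction. The lower left holds 5 genes called lower in both tissues, the upper right 1 gene called higher in both.

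Read across tissues, 5 genes were lower by size in both, namely 4 small heat shock protein genes (Ma01_g14490, Ma02_g14380, Ma08_g29620, Ma09_g00490) and BAG6-like (Ma10_g14770). Of those 5, the root intervals of Ma02_g14380, Ma08_g29620 and Ma09_g00490 held 1. DnaJ C14-like was higher by size in both, although its leaf interval also held 1. Leaf alone gave 10 higher and 11 lower genes, root alone 3 higher and 5 lower, and 2 genes were called in neither tissue. The shares of all genes called in both tissues or in a single one were not computed, so nothing is read from these counts. By counting error alone, the 95% interval of the low-N fold lay above 1 for 11 genes and below 1 for 21 in leaf, and above 1 for 7 and below 1 for 15 in root. Intervals were not counted over all genes, and listing used the same libraries, so these numbers are only a description.

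The BAG proteins bind HSP70 and help it release its client. BAG6-like (Ma10_g14770), whose Arabidopsis relative binds calmodulin, was at 285 FPKM in control leaf, 83.6 in low-N leaf, 29.4 in control root and 10.1 in low-N root. It drew the most fragments of the 38 genes in control leaf, 4068, and the folds were 3.41 lower in leaf (3.20 to 3.64) and 2.92 lower in root (2.42 to 3.53). BAG1-like (Ma03_g14580) had the opposite tissue pattern, at 13.8 and 5.17 FPKM in leaf and 95.6 and 122 FPKM in root. Its low-N fold was 2.74 lower in leaf (1.61 to 4.82) and 1.27 higher in root (1.12 to 1.46).

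The chaperonin genes encode the 20 kDa lid protein of the chloroplast folding chamber, which assists the folding of RuBisCO. Ma11_g08860 was at 211 FPKM in control leaf, 105 in low-N leaf, 32.0 in control root and 30.5 in low-N root, 2.02-fold lower in leaf (1.77 to 2.30). Ma05_g04870 was at 78.8, 29.7, 84.4 and 70.1 FPKM, 2.66-fold lower in leaf (2.09 to 3.40). One copy was thus leaf-weighted and the other level between tissues in control plants, and both were lower in low-N leaf. ClpD1-like (Ma03_g13260), a chloroplast HSP100-type ATPase whose Arabidopsis relative ERD1 is induced by drying and senescence, was at 0.81, 3.05, 3.42 and 4.95 FPKM and 3.75-fold higher in low-N leaf (1.89 to 8.08).

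Another 5 genes were caught by the word chaperone and belong to no heat shock protein family. Of these, 4 were higher by size in low-N leaf and 0 lower. The copper chaperone for superoxide dismutase (Ma04_g31460), which loads copper into that enzyme, was at 28.5 FPKM in control leaf, 141 in low-N leaf, 16.0 in control root and 23.9 in low-N root. Low-N leaf stood apart, 4.93-fold above control leaf (3.99 to 6.13), the most positive leaf change of the 38 genes on the log2 (FPKM + 1) scale. By counts dnaJ C14-like had a larger leaf fold, 7.04, from 1 and 7 fragments, with an interval that held 1. BCS1-B genes are named after a yeast mitochondrial ATPase that inserts an iron-sulphur protein into the respiratory chain. Ma04_g18020 was at 26.1 and 110 FPKM in leaf and 120 and 75.5 FPKM in root, 4.20-fold higher in low-N leaf (3.52 to 5.03) and 1.59-fold lower in low-N root (1.42 to 1.79). Ma04_g18010, of equal length, was at 0.15 and 0.24 FPKM in leaf and 82.5 and 26.7 FPKM in root, 3.10-fold lower in low-N root (2.61 to 3.71). The genes Ma03_g05100 and Ma03_g05600 had the same best match, were at 7 and 3.60 FPKM in control leaf, and were 4.34-fold (3.11 to 6.17) and 3.85-fold (2.01 to 7.99) higher in low-N leaf. Fragments may have been divided between them.

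Leaf and root were also compared under each solution, a contrast that was not itself filtered on, but its libraries are those of the filtered contrasts, so the counts are a description. In control plants, 16 of the 38 genes were higher in leaf than root by size and 9 lower, where all genes gave 20.1% higher and 42.2% lower, and filtered genes gave 23.3% and 49.9%. As shares of the 38, those counts are 42.1% and 23.7%. The median log2 difference was 0.60 for the 38 and -0.63 for all genes, or 1.08 and -0.14 after median-ratio scaling. Under low N, 17 were higher and 9 lower, against 22.8% and 37.1% of all genes and 34.7% and 35.6% of the filtered tables, with a median of 0.70 against -0.35. In control plants the counts differed by list. Listing for leaf used the control leaf library itself, and the shares over all genes of each list were not computed, so nothing is read from that split. The 26 listed for leaf alone had 13 higher and 5 lower in leaf and a median of 1.01, whereas the 10 listed for root alone had 2 higher and 4 lower and a median of -0.11.

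**Figure D4:**
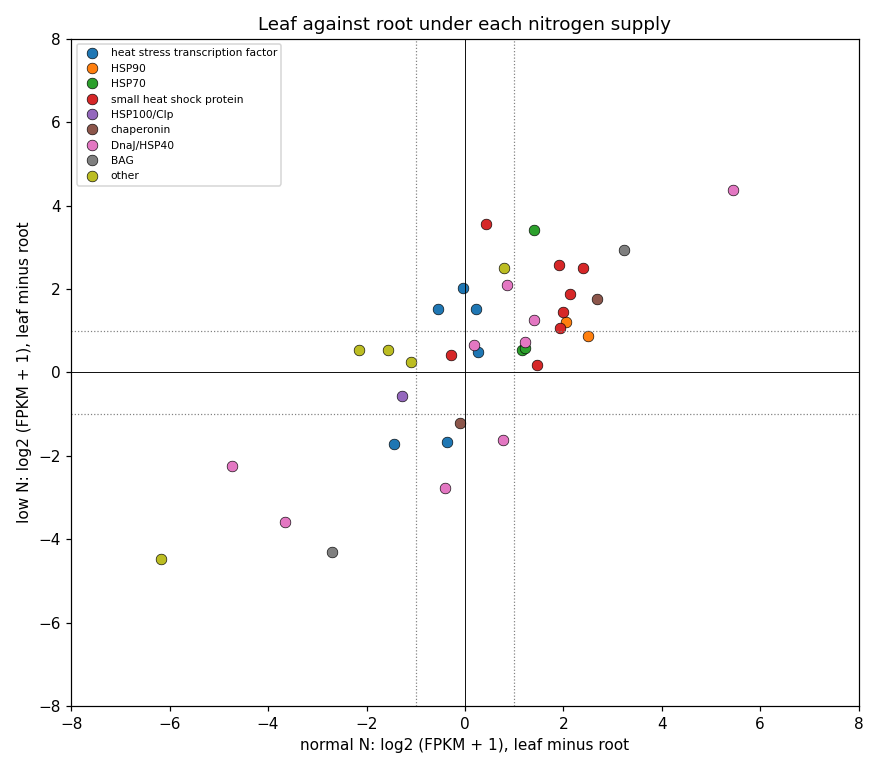
Leaf minus root on the log2 (FPKM + 1) scale in control plants (x axis) and low N (y axis) for the 38 genes, coloured by role, 1 point per gene; dotted lines mark the size limit of 1. The upper right holds 11 genes higher in leaf by size under both solutions and the lower left 5 that were lower under both.

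By role, 6 of 8 small heat shock protein genes were higher in leaf than root by size under each solution and 0 were lower. These were not the same 6, as Ma10_g30320 was called in control plants alone and Ma09_g11240 under low N alone. HSP90 was higher for 2 of 2 in control plants and 1 of 2 under low N, and HSP70 for 3 of 3 and 1 of 3. The 5 copper chaperone and BCS1-B genes had 0 higher and 4 lower in control plants, and 1 and 1 under low N. Over all genes, 20.1% were higher and 42.2% lower in control plants, and 22.8% and 37.1% under low N. Nothing is read from the counts by role. In control plants, the largest leaf excess was that of dnaJ B14 (Ma06_g30910), 59.0-fold (31.8 to 124), followed by BAG6-like at 9.64-fold (8.74 to 10.7), the chaperonin Ma11_g08860 at 6.59-fold (5.38 to 8.12) and the HSP90 gene Ma08_g15090 at 6.41-fold (4.79 to 8.71). Root was higher for BCS1-B Ma04_g18010, for dnaJ 11 (45.2-fold, 15.2 to 222), for dnaJ C14-like (46.5-fold, 7.96 to 1872) and for BAG1-like (6.91-fold, 5.20 to 9.34). The BCS1-B fold rests on about 1 fragment in leaf, 501 with an interval of 89.6 to 19844. Some genes differed between tissues by size under only 1 solution, 5 higher and 4 lower in leaf in control plants alone and 6 higher and 4 lower under low N alone, while 0 were called in opposite directions. The shares of all genes called under 1 or both solutions were not computed, so nothing is read from these counts. The 15.4 kDa class V gene was 1.35-fold higher in leaf in control plants (0.93 to 1.96) and 15.5-fold higher under low N (6.36 to 49.3). The cognate HSP70 gene, called under both solutions, was 3.47-fold (1.99 to 6.38) and 21.3-fold (10.5 to 50.1) higher in leaf, in control and low-N plants respectively.

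Other genes of protein folding and of the heat response, found in the filtered tables by search terms, were set beside the chaperones. Of 10 genes caught as folding partners, 1 was higher and 6 lower by size in leaf, and 0 were higher and 3 lower in root. Both guanine nucleotide exchange factors among the 10 act on small GTPases, not in folding, and without them the counts were 0 higher and 5 lower of 8 in leaf and 0 and 3 in root. In leaf, the peptidyl-prolyl isomerase CYP38 of the chloroplast (Ma01_g07520) was at 63.3 and 21.1 FPKM and FKBP13 (Ma08_g06700), also of the chloroplast, at 78.6 and 31.2 FPKM. In root, a protein disulfide-isomerase-like gene (Ma03_g23000), which forms disulfide bonds in the secretory pathway, was at 8.97 and 3.05 FPKM and calreticulin-3-like (Ma11_g13680), a calcium-binding chaperone of the endoplasmic reticulum, at 92.2 and 37.9 FPKM. Of 5 genes on the heat response list, 0 were higher and 3 lower in leaf, and 0 higher and 3 lower in root. Galactinol synthase 1-like (Ma11_g14680), which makes the precursor of raffinose sugars, was at 2.82 and 0.71 FPKM in leaf and 23.1 and 2.88 FPKM in root. A universal stress protein gene (Ma10_g29490) was at 221 and 80.4 FPKM in root but at 29.25 and 38.25 FPKM in leaf. Other changes under the size limit also went up. The disulfide-isomerase-like gene was at 4.78 and 6.36 FPKM in leaf. A 70 kDa peptidyl-prolyl isomerase-like gene (Ma06_g29520) was at 6.07 and 7.99 FPKM in root, and at 7.52 and 2.89 FPKM in leaf. Like the chaperones, these genes were available only because the tables' filter had picked them.

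Of the 38 genes, 10 were described as chloroplastic, and these went both ways, 3 higher and 3 lower by size in leaf and 1 higher and 3 lower in root. The 5 described as mitochondrial were 3 higher and 0 lower in leaf and 1 higher and 1 lower in root. All 3 that were higher in leaf were BCS1-B genes (Ma03_g05100, Ma03_g05600 and Ma04_g18020). The mitochondrial small heat shock protein gene (Ma10_g30320) was level in leaf. Over the filtered tables, 53.0% were higher and 26.1% lower in leaf, and 15.9% and 26.4% in root. Nothing is read from the counts by compartment. For 19 of the 38 genes at least 1 library had an expected count that was not whole, which can arise where fragments match more than 1 gene. No sequence is shown, because none of the 31873 gene IDs matched the reference gene table.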

How the data were processed

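RNA sequencing of 4 libraries was used, 1 each from leaf and root under control (normal) and low N. Libraries were made from poly(A) RNA without a stated strand-marking step, per the labels' protocols. Per the submitters' processing notes, BWA and Bowtie were used; no source used here names the counter, build or annotation. Per the file headers, the authors deposited an expected count and an FPKM value per gene and library; an unlisted gene was read as 0. Their filtered tables hold log2 ratios of low N over control FPKM, made by the authors per the file headers, which served only to name the genes nearest the limit. The authors' deposited p-values and FDR compare 1 library with 1 library and were not used. Descriptions exist only for the 3396 genes of those tables.

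Differences were computed as log2 (FPKM + 1), with a filter of 2 FPKM in the higher library and a size limit of 1. Single-gene folds used expected counts rounded to whole numbers, divided by the totals of the libraries, with 95% Clopper-Pearson intervals (scipy 1.17.1), which cover counting error only; PCR copies without molecular identifiers are not independent molecules. The calls and intervals were run on simulated counts that held counting error only, with large changes planted in genes with many fragments. That run does not speak to smaller changes, to changes in weak genes or to the spread between plants. Named genes were the most abundant of each role, up to 8 per direction and tissue and 4 per direction between tissues with at least 5 FPKM, and genes called in opposite directions; the remaining genes are given for completeness. The genes and lists were chosen with earlier results of these data known. Alternatives were pseudocounts of 0.1 and 5, no filter or 10 FPKM, a size limit of 2, other scalings and other gene sets.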

Additional observations from a re-analysis of the deposited data

Results flagged for a closer look

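The dnaJ 11 gene (Ma08_g14510) was the only gene of the 38 called by size in opposite directions in the tissues, higher in low-N leaf and lower in low-N root. Its log2 change in leaf exceeded that in root by 2.50. The difference was not tested, since each group had 1 library, and the leaf change of 1.25 rests on 3 fragments in control plants and 10 under low N, a fold of 3.35 with an interval of 0.86 to 18.9 that holds 1.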

How the results depend on the processing

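No paired analysis was possible because each group had 1 library, and no library could be left out for the same reason. With a pseudocount of 5, 7 genes were higher in low-N leaf in place of 12, and 7 lower in low-N root in place of 11. With a size limit of 2, leaf had 2 higher and 1 lower under low N, root 0 higher and 2 lower, 7 higher and 5 lower in leaf than root in control plants, and 9 higher and 5 lower under low N. The genes listed in both tables number 2, of which 1 was higher and 0 lower in leaf than root under either solution. Leaving out the copper chaperone and BCS1 genes, an alternative chosen after seeing the data, left 5 genes lower in leaf than root in control plants in place of 9. The other 73 recounts of genes stayed within 1.5 times the reported counts, and no median changed sign under any alternative.

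Over all genes, median-ratio scaling took the median log2 change in leaf from 0.12 to -0.09 and the leaf-root difference in control plants from -0.63 to -0.14. It turned the called genes of leaf from 63.6% higher to 46.5% higher over all genes. The medians of the chaperone genes became -1.17 in leaf, -0.51 in root, and 1.08 and 0.92 for leaf against root in control and low-N plants. No called gene of the 38 changed sign under median-ratio or upper-quartile scaling. Depth limits the weakest genes most: a floor of 3 fragments stands for 0.680 to 0.724 FPKM in a 1 kb gene, and the library totals are small.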

Other observations

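Some genes of the filtered tables carried chaperone terms in their KEGG text but not in their best-match description, 28 in all, many of them of other kinds. In leaf, 7 of the 28 were higher by size under low N and 7 lower, with 22 at the filter. In root, 7 were higher and 5 lower, with 27 at the filter. Over the filtered tables, 53.0% were higher and 26.1% lower in leaf, and 15.9% and 26.4% in root. These genes too came from tables filtered on the low-N change, so nothing is read from the counts. A pair of the 28, picked after their values were seen, act with an HSP70 or with the chaperonin lid protein. None of the HSP70 genes above was described as mitochondrial. A mitochondrial grpE homolog (Ma07_g16280), the exchange factor of mitochondrial HSP70, was at 130 FPKM in control leaf, 42.1 in low-N leaf, 13.5 in control root and 10.3 in low-N root. RuBisCO large subunit-binding protein subunit beta (Ma11_g06010), a chloroplast chaperonin whose lid is the 20 kDa protein, was at 11.0, 5.48, 10.7 and 13.7 FPKM in the same order. The former was lower by size in low-N leaf, and the latter was below the size limit on the log2 scale. Others with such text went the opposite way in leaf, and 2 uncharacterized genes, also picked after their values were seen, show this. Ma02_g15130, whose KEGG text names HSP70, was at 24.2 FPKM in control leaf and 51.5 in low-N leaf. Ma07_g05200, whose text names ClpB, was at 8.46 and 19.3 FPKM.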
